A study of Mus musculus with 6 samples.

Results

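The 10 genes described here encode transcription factors that mark or pattern the mesenchyme of the lung: the T-box genes Tbx2, Tbx3, Tbx4 and Tbx5, the forkhead genes Foxf1 and Foxd1, the basic helix-loop-helix gene Tcf21, the homeobox genes Meox2 and Hoxa5, and Ebf1. They were chosen by name, with earlier results of these data known, as 10 of the 21603 genes of the dataset, and all 10 were found by their Ensembl identifiers. The data are RNA bound to HA-tagged ribosomes, immunoprecipitated from mouse lung at postnatal day 8, in 3 control and 3 Yap1,Wwtr1 iPCKO samples. All 6 samples came from C57BL/6 mice with the tamoxifen-inducible Pdgfrb(BAC)-CreERT2 transgene and a Cre-dependent Rpl22 allele that tags ribosomes, and all received tamoxifen in the first days after birth. Controls were Yap1+/-;Wwtr1+/- by their labels, with 1 floxed copy of each gene per the study's methods, and iPCKO samples were Yap1-/-;Wwtr1-/-. Tagging and deletion therefore followed the activity of the Pdgfrb transgene, and the controls had themselves lost a copy of each gene in the recombined cells. Whether samples came from single animals is not given in the sources used here, so p-values measure the spread between these 6 samples.

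T-box factors bind DNA through a conserved T-domain. Tbx4 and Tbx5 are needed for the lung bud to form and branch, and Tbx2 and Tbx3 keep the embryonic lung mesenchyme proliferating. Foxf1 is a Hedgehog-dependent activator of mesenchymal and vascular genes of the lung, Tcf21 is required for mesenchymal differentiation and alveolar formation, Hoxa5 patterns airway and lung along the body axis, and Meox2 acts in vascular and muscle progenitors. Ebf1 is known both from B cell specification and from perivascular cells, and Foxd1 marks stromal progenitors of the kidney and a pericyte lineage of the lung. YAP1 and TAZ, the products of Yap1 and Wwtr1, are coactivators that reach DNA mainly through TEAD proteins.

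Of the 10 genes, 6 had promoter windows in the RefSeq table used here, 7 windows in all, each 250 bases before to 50 bases after a start site on GRCm38.p6. The upstream parts are shown for Tcf21 and Tbx4, the 2 genes with a lower level in iPCKO samples at an adjusted p below 0.05, and for Hoxa5, which had no such difference. They lie at chr10:22820175-22820393 (minus strand) for Tcf21, chr11:85896515-85896764 (plus strand) for Tbx4 and chr6:52204588-52204837 (minus strand) for Hoxa5. For Tcf21 only the 219 bases outside the annotated gene are shown, as the start site of its window lies inside that gene. The Tbx4 window lies inside the annotated gene, before the first exon of a shorter isoform.
Tcf21: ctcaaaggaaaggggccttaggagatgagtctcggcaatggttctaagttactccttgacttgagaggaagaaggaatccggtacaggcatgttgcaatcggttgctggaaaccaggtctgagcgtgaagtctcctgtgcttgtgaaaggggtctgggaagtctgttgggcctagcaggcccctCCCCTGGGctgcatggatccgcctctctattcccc
Tbx4: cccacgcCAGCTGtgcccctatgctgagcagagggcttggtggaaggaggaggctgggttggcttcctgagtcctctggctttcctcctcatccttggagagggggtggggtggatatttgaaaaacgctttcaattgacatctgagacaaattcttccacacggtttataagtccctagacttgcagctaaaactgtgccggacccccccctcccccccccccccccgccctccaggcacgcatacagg
Hoxa5: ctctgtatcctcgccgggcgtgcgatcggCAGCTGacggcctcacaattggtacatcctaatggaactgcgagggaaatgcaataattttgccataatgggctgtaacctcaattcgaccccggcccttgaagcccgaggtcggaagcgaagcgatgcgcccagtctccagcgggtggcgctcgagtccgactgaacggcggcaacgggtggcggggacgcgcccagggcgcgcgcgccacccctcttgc
Capitals mark matches, on either strand, to any of 5 short motifs. The Tcf21 stretch held 1 match to the EBF motif CCCNNGGG, at base 185. Tbx4 and Hoxa5 each held the E-box CAGCTG, a sequence bound by basic helix-loop-helix factors, at bases 8 and 30. The TEAD motif GGAATG was in none of the 7 windows of the 6 genes, the forkhead motif TGTTTAC was in none, and the T-box motif GGTGTGA was in 1 of the 2 Ebf1 windows. Among all 32851 RefSeq windows of the same length, 14.7% held the TEAD motif, 4.0% the T-box motif, 3.6% the forkhead motif, 16.3% the E-box and 13.7% the EBF motif. No matches overlapped each other, and a match is a description of these letters, not a bound site.

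The values are RPKM, that is, read numbers divided by exon length and by the mapped reads of the library. The exon length used is not stated, so comparisons of level between genes hold only as far as it suits each gene. Depth, estimated from the spacing of low values, ranged from 14.23 to 39.59 M reads and overlapped between the groups. Yap1 had 13.2, 11.5 and 12.4 RPKM in the 3 controls and 5.76, 5.83 and 5.25 RPKM in the 3 iPCKO samples, and fell by 1.12 on the log2 scale (limma, adjusted p = 0.000175). For Wwtr1, the control mean was 60.4 ± 9.48 RPKM (SD, n = 3) and the iPCKO mean 62.0 ± 1.63 RPKM, with overlapping groups. A value over the whole gene does not separate deleted exons from the rest, so for Wwtr1 it checks nothing. Pdgfrb, the gene whose promoter drives the Cre, stood at 1533 ± 151 RPKM in controls and 1337 ± 131 RPKM in iPCKO samples. Y-linked transcripts were present in controls 1 and 3 only: the mean log2(RPKM + 0.1) of 4 such genes was 2.95 and 3.17 there and between -3.21 and -3.11 in control 2 and the 3 iPCKO samples. Sex and genotype are thus confounded in part, and control 2 is the only control of the same kind as the iPCKO samples. With these transcripts as a covariate, the group difference rests almost wholly on control 2. The covariate fit and a comparison with control 2 alone are therefore not separate checks.

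In controls, 9 of the 10 genes were well above the filter of 1 RPKM, and most ranked among the more abundant genes of the pulldown. Tbx2 had the highest mean, above 99.2% of the 12034 genes tested. Tbx4 stood above 98.7% of them, Foxf1 above 98.6%, Tbx5 above 96.2% and Tcf21 above 93.3%. The control means of Tbx3, Ebf1 and Hoxa5 lay above 80.3%, 76.5% and 76.0% of the tested genes, and that of Meox2 above 54.4%. Foxd1 lay near 0 in every sample. Neighbours in this order whose control samples overlapped were Tbx4 with Foxf1, Tbx3 with Ebf1, and Ebf1 with Hoxa5, and the other steps of the order separated all 3 controls. For comparison, the epithelial factor gene Nkx2-1 had 6.43 ± 0.691 RPKM and the endothelial Erg 6.90 ± 0.353 RPKM (SD, n = 3) in controls, below all of the 10 genes except Foxd1. Other markers of these cells went both ways. In controls the mean of Sftpc, at 362.8 RPKM, lay above all 10 genes, while Egfl7 stood at 61.0 and Epcam at 1.56 RPKM. These values do not show how much epithelial or endothelial RNA the pulldown held.

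**Figure D1:**
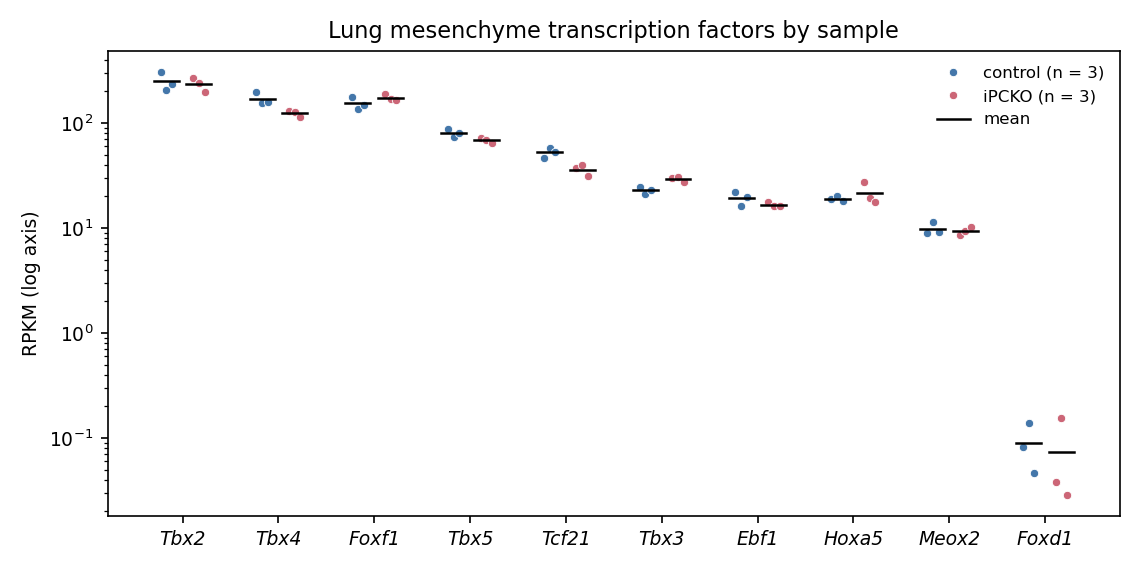
RPKM of the 10 transcription factor genes on a log axis, ordered by control mean, with 1 point per sample (3 control, 3 iPCKO) and a black bar at each group's mean. Tbx2 is highest at 250.2 RPKM in controls, Foxd1 lies at 0.154 RPKM or below, and the groups are separate for Tbx3, Tbx4, Tbx5 and Tcf21.

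The comparison of iPCKO with control samples asks whether these factors differed in ribosome-bound RNA when Yap1 and Wwtr1 were deleted. With limma on log2(RPKM + 0.1), 9 of the 10 genes could be tested. Of the 9, 0 passed the study's thresholds, an adjusted p below 0.01 with an absolute log2 fold change above 0.5. The study set these thresholds for DESeq2 on read counts, so the calls made here need not match its own. Over all 12034 tested genes, 6.79% passed, 4.11% being higher and 2.68% lower. At an adjusted p below 0.05 with no fold limit, 1 of the 9 was higher in iPCKO samples (Tbx3) and 2 were lower (Tcf21 and Tbx4), where 8.63% and 6.52% of all tested genes were. At an unadjusted p below 0.05 the count was 4 of the 9, beside 29.7% of all tested genes. All 3 iPCKO samples lay above all 3 controls for 1 gene and below them for 3 (Tcf21, Tbx4 and Tbx5), where the background was 18.3% and 17.1% of tested genes. The log2 fold changes of the 9 genes ran from -0.55 to 0.36, with a median of -0.09 against -0.0001 over all tested genes. Their median size, 0.21, was close to the 0.17 of all tested genes. In whole-lung pulldowns, fewer cells of a type and less RNA per cell cannot be told apart. By flow cytometry at a later age, the paper reports no significant change in the abundance of PDGFRβ+ cells in iPCKO lungs. The part of cell numbers in the values of these 6 samples was not tested.

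**Figure D2:**
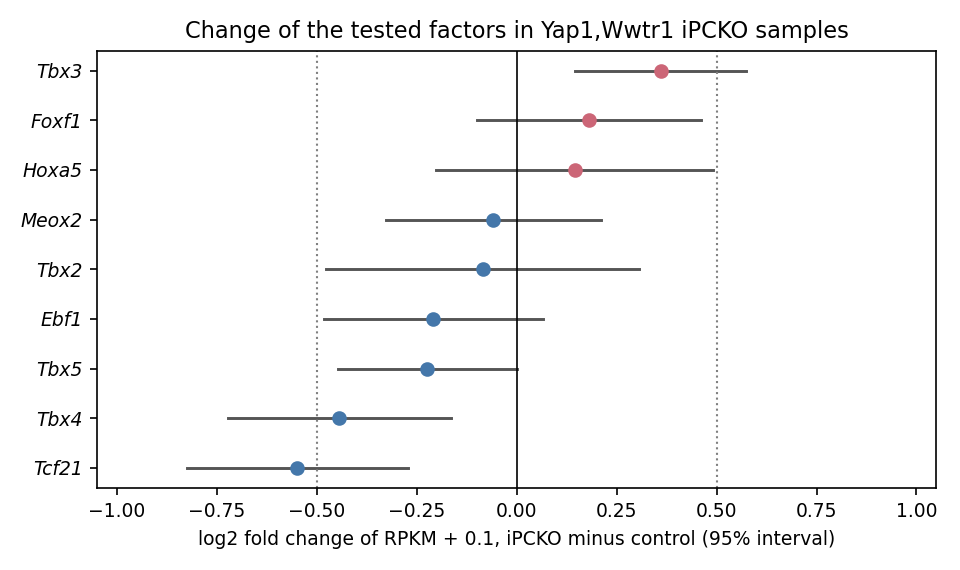
Log2 fold change of RPKM + 0.1, iPCKO minus control, for the 9 tested genes (points) with 95% intervals (lines). Dotted lines mark the fold limit of 0.5 in each direction. Tcf21 at -0.55 is the only estimate past the limit, and the intervals of Tcf21, Tbx4, Tbx5 and Tbx3 do not include 0.

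Tcf21 (ENSMUSG00000045680, chromosome 10, 22817281 to 22820174 on GRCm38, minus strand), a basic helix-loop-helix factor of mesenchymal progenitors and fibroblasts, had the lowest estimate of the 9. It had 46.2, 58.3 and 53.2 RPKM in the 3 controls and 37.0, 39.5 and 31.3 RPKM in the 3 iPCKO samples. The groups did not overlap, and control 1 was the control nearest to the iPCKO samples. The iPCKO mean was 68.3% of the control mean, and the log2 fold change was -0.55 (standard error 0.12, 95% interval -0.83 to -0.27, limma adjusted p = 0.018). Against control 2 alone, all 3 iPCKO samples were lower, with a mean log2 difference of -0.70. With the Y-linked transcripts as a covariate, the adjusted p was 0.0762 at an estimate of -0.70. The summed RPKM of the 8 fibroblast markers ran from 183.8 to 207.8 in controls and from 143.2 to 191.9 in iPCKO samples. Of those markers, Npnt, an integrin ligand, fell from 61.8 ± 3.74 to 27.6 ± 3.01 RPKM (SD, n = 3), while Inmt rose from 3.19 ± 0.444 to 6.04 ± 0.311 RPKM, and Pdgfra and Dcn overlapped between the groups. The part of fibroblast RNA in the Tcf21 value was not tested.

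Basic helix-loop-helix relatives of Tcf21 and the E proteins with which this class pairs were listed as 16 genes, of which 11 were tested, 2 rose and 2 fell, with a median log2 fold change of 0.02. With the Y-linked covariate, 0 of these 4 calls remained, while all 4 estimates kept their sign. Msc, the closest relative of Tcf21, had 6.38, 4.14 and 4.65 RPKM in controls and 0.935, 0.5 and 0.368 RPKM in iPCKO samples, which do not overlap. It fell by 2.94 on the log2 scale (standard error 0.29, limma adjusted p = 0.000411). Twist2, a mesenchymal repressor, fell from 13.9 ± 2.90 to 7.18 ± 0.839 RPKM (SD, n = 3). Scx, a factor of tendon and matrix-forming cells, rose from 3.78 ± 0.599 to 9.01 ± 1.19 RPKM. Id1, an inhibitor that binds E proteins and is a common target of BMP signalling, rose from 35.4 ± 1.98 to 67.5 ± 6.23 RPKM, while its relative Id3 had 104.1 ± 12.5 and 81.2 ± 13.6 RPKM with overlapping groups. The E protein genes Tcf3, Tcf4 and Tcf12 had log2 fold changes of 0.18, -0.20 and 0.26, with limma adjusted p-values of 0.36, 0.232 and 0.0793.

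The T-box genes lie as 2 neighbouring pairs. Tbx2 (ENSMUSG00000000093, chromosome 11, 85832551 to 85841948) and Tbx4 (ENSMUSG00000000094, 85886422 to 85916097) are 44473 bp apart, and Tbx3 (ENSMUSG00000018604, chromosome 5, 119670669 to 119684724) and Tbx5 (ENSMUSG00000018263, 119832668 to 119885219) are 147943 bp apart, all on the plus strand. Within each pair, a gene of the Tbx2 and Tbx3 subgroup, which often act as repressors, stands beside a gene of the Tbx4 and Tbx5 subgroup, which act as activators.

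Tbx4 had 197.2, 153.6 and 157.9 RPKM in controls and 130.7, 126.1 and 115.1 RPKM in iPCKO samples. The groups did not overlap, control 1 stood above the other controls, and the iPCKO mean was 73.1% of the control mean. Its log2 fold change was -0.44 (standard error 0.12, 95% interval -0.72 to -0.17, limma adjusted p = 0.0426), short of the fold limit. Leaving out each sample in turn gave estimates of -0.51 to -0.33, with limma adjusted p-values of 0.0457 to 0.139. Against control 2 alone, all 3 iPCKO samples were lower by a mean log2 difference of -0.31, and the adjusted p with the Y-linked covariate was 0.43 by limma. Its neighbour Tbx2 had 306.4, 208.1 and 236.2 RPKM in controls and 265.6, 242.8 and 195.5 RPKM in iPCKO samples. These groups overlapped over most of their range, with a log2 fold change of -0.09 and a 95% interval of -0.48 to 0.31 that lies within the fold limits. The estimate turned positive without control 1, at 0.07, and without iPCKO 3, at 0.04.

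Tbx3 was the gene of the 9 with the highest estimate. It had 24.5, 20.9 and 22.9 RPKM in controls and 29.8, 30.7 and 27.2 RPKM in iPCKO samples, which lay above all controls. The iPCKO mean was 128.3% of the control mean, and the log2 fold change was 0.36 (standard error 0.09, 95% interval 0.15 to 0.57, limma adjusted p = 0.0348). Against control 2 alone, the iPCKO samples were all higher, by a mean of 0.48 on the log2 scale, and with the Y-linked covariate the limma adjusted p was 0.115. Tbx5, beside it, had 87.1, 73.3 and 79.5 RPKM in controls and 71.7, 69.1 and 64.2 RPKM in iPCKO samples. All iPCKO samples were below all controls, but the gap between control 2 and iPCKO 1 was narrow, and at a log2 fold change of -0.22 limma gave an adjusted p of 0.168. Exact permutation tests gave p = 0.1 for each of Tcf21, Tbx4, Tbx5 and Tbx3, the smallest value that 3 against 3 samples allow.

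The ratio of a gene to its neighbour within a sample does not depend on how samples were scaled. These pairs were chosen after the values were seen, so their ratios are given as a description. Tbx3 had 0.282, 0.285 and 0.288 times the RPKM of Tbx5 in the 3 controls and 0.416, 0.443 and 0.423 times in the 3 iPCKO samples. The controls thus differed by less than the distance between the groups, although each gene on its own varied more among controls. Tbx2 had 1.554, 1.355 and 1.496 times the RPKM of Tbx4 in controls and 2.032, 1.925 and 1.699 times in iPCKO samples. Both ratios were higher in every iPCKO sample than in any control. For Tbx3 to Tbx5 this follows from the levels, as Tbx3 lay above all controls and Tbx5 below them. Of the 7 ratios compared, 6 did not overlap between the groups, each at an exact permutation p of 0.1. The share over all gene pairs was not computed, so the ratios are no result about the subgroups.

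**Figure D3:**
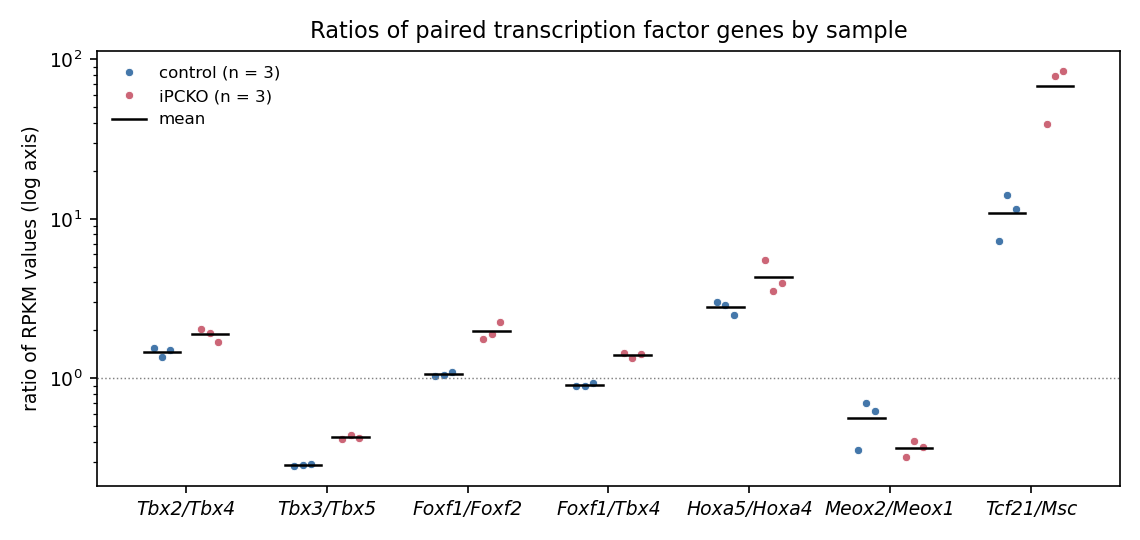
Ratio of the RPKM values of 2 genes within each sample on a log axis, with 1 point per sample (3 control, 3 iPCKO) and a black bar at the arithmetic mean of each group. The Tbx3/Tbx5 ratio spans 0.282 to 0.288 in controls and 0.416 to 0.443 in iPCKO samples, and the Meox2/Meox1 ratio overlaps between the groups.

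Of the 13 other T-box genes only Mga and Tbx6 passed the filter on low values, and neither passed the thresholds. Mga, a large dual-specificity repressor, had 12.4 ± 1.78 and 11.6 ± 0.945 RPKM (SD, n = 3). Tbx6, a factor of the early paraxial mesoderm, had 1.46 ± 0.094 RPKM in controls and 0.830 ± 0.273 RPKM in iPCKO samples, with no overlap and a limma adjusted p of 0.0544.

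Foxf1 (ENSMUSG00000042812, chromosome 8, 121084386 to 121088144, plus strand) had 176.7, 136.5 and 148.2 RPKM in controls and 188.2, 169.1 and 164.0 RPKM in iPCKO samples. Control 1 reached into the range of the iPCKO samples, and the other controls lay below it. The log2 fold change was 0.18 (standard error 0.12, 95% interval -0.10 to 0.46, limma adjusted p = 0.366). Foxf1 had 0.896, 0.889 and 0.938 times the RPKM of Tbx4 in controls and 1.44, 1.34 and 1.43 times in iPCKO samples, so the order of these genes was the opposite in the 2 groups. This pair was chosen because its order changed, so its ratio is a description. The control ranges of the 2 genes overlapped. Foxf2, the paralogue of Foxf1, had 171.0, 129.6 and 134.9 RPKM in controls and 106.6, 89.7 and 72.5 RPKM in iPCKO samples. Its groups did not overlap, and its log2 fold change was -0.70 (standard error 0.16, limma adjusted p = 0.0213), past the fold limit but not the limit on the adjusted p. Foxf1 had 1.03 to 1.10 times the level of Foxf2 in controls and 1.77 to 2.26 times in iPCKO samples.

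The 2 paralogues share a stretch of their forkhead domain coding sequence that is identical over 41 bases, the longest shared run among the paralogue pairs of these genes that were compared. It is shown as the stretch over which the transcripts of the 2 genes are most alike. Capitals mark the shared bases, and the lower case flanks are the adjoining coding bases of GENCODE M21 transcripts.
Foxf1: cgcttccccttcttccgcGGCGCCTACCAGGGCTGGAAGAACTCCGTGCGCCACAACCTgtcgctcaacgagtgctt
Foxf2: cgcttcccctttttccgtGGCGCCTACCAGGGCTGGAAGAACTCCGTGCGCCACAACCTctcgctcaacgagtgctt
The other pairs compared shared runs of 12 to 26 bases.

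Around Foxf1 on chromosome 8, Foxc2 starts 28026 bp and Foxl1 39795 bp beyond its end. Foxl1, a factor of Hedgehog-responsive subepithelial mesenchyme, had 3.32, 2.25 and 2.33 RPKM in controls and 4.80, 5.83 and 4.93 RPKM in iPCKO samples. It rose by 0.97 on the log2 scale (standard error 0.16, limma adjusted p = 0.00511), and it was the only one of 21 tested genes among the 42 other forkhead genes to pass the thresholds. Foxc2 had 1.48 ± 0.081 and 1.73 ± 0.253 RPKM (SD, n = 3) and overlapped between the groups. Mthfsd, the gene nearest to the Foxf1 end at 3483 bp, also overlapped, with a log2 fold change of -0.09. Foxs1, a forkhead gene of pericytes, had 57.8 ± 5.90 and 45.2 ± 7.40 RPKM, with a limma adjusted p of 0.112. The median log2 fold change of the other forkhead genes was -0.08.

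Foxd1 (ENSMUSG00000078302, chromosome 13, 98354242 to 98359305, plus strand) was listed at 0.082, 0.140 and 0.047 RPKM in controls and at 0.038, 0.154 and 0.029 RPKM in iPCKO samples. At the depth and exon length used here this corresponds to about 8, 12 and 8 reads and about 4, 31 and 2 reads. The groups overlapped, with the highest sample an iPCKO sample, and an exact permutation test gave p = 0.6. Foxd1 did not pass the filter, and a difference was not detectable at this depth.

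Hoxa5 (ENSMUSG00000038253, chromosome 6, 52201754 to 52204587, minus strand) had 18.8, 20.2 and 18.2 RPKM in controls and 27.3, 19.2 and 17.8 RPKM in iPCKO samples. A single library, iPCKO 1, stood above the rest, and the other 5 lay within 17.8 and 20.2 RPKM. The spread was 5.3% of the mean in controls and 23.9% in iPCKO samples. The log2 fold change was 0.14 (95% interval -0.20 to 0.49, limma adjusted p = 0.571), and it was -0.04 without iPCKO 1. The gene spans of Hoxa3 on the same strand and of an antisense gene overlap that of Hoxa5. The span of Hoxa3 also covers Hoxa4 and Hoxa6, and annotated genes overlap Tbx3, Foxf1, Tcf21, Meox2 and Ebf1 too. As the sources do not say whether counting used strand, reads shared between such genes cannot be told apart.

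Along the Hoxa cluster, Hoxa5 had the highest level. Hoxa2 to Hoxa7 all passed the filter, with control means of 12.0 RPKM for Hoxa2, 2.67 for Hoxa3, 6.86 for Hoxa4, 19.1 for Hoxa5, 2.62 for Hoxa6 and 1.43 for Hoxa7. Hoxa9, Hoxa10 and Hoxa13 were listed at 0.034 RPKM or less in every sample, and Hoxa11 was listed at 0 in all. Both groups thus held transcripts of the anterior part of the cluster and few or none of the posterior part. Hoxa4, 10000 bp from Hoxa5, had 6.24, 7.02 and 7.32 RPKM in controls and 4.95, 5.43 and 4.53 RPKM in iPCKO samples, with no overlap and a limma adjusted p of 0.0233. On the other side, 1700 bp away, Hoxa6 had a log2 fold change of 0.05 and overlapping groups.

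**Figure D4:**
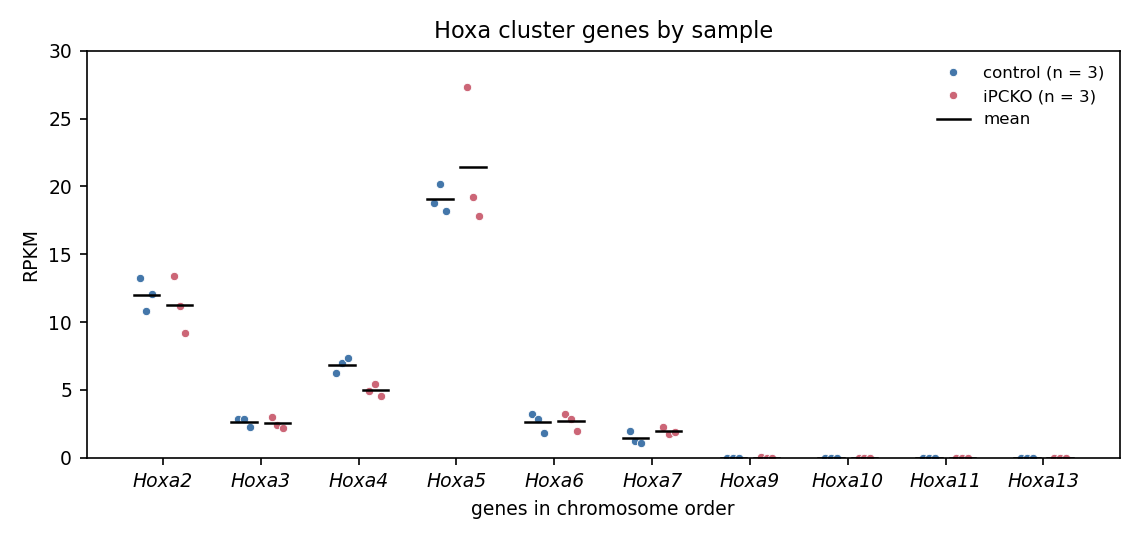
RPKM of 10 Hoxa genes in chromosome order, with 1 point per sample (3 control, 3 iPCKO) and a black bar at each group's mean. Levels peak at Hoxa5 with a control mean of 19.1 RPKM, Hoxa4 is lower in all 3 iPCKO samples, and Hoxa9 to Hoxa13 lie at or near 0.

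Of 38 other Hox genes, 37 were found and 12 were tested. Past the thresholds, 1 fell and 0 rose, and the median log2 fold change was -0.03. Hoxb2 levels were 14.0 ± 0.938 RPKM in controls and 19.1 ± 2.82 RPKM in iPCKO samples (SD, n = 3), without overlap and with a limma adjusted p of 0.0394. Hoxb5, the paralogue of Hoxa5, had 9.69 ± 1.54 and 9.41 ± 1.41 RPKM. The TALE homeodomain proteins bind DNA together with Hox proteins, and 2 of 10 tested genes of this class fell. Pknox2 had 12.0, 11.2 and 12.9 RPKM in controls and 5.07, 4.39 and 4.82 RPKM in iPCKO samples, and fell by 1.32 on the log2 scale (standard error 0.10, limma adjusted p = 9.83e-05). Meis1 fell from 13.4 ± 1.34 to 9.36 ± 0.381 RPKM, or by 0.51 on the log2 scale, with a limma adjusted p of 0.00911. Pbx2, among the most abundant of the class, had a log2 fold change of 0.22 that did not pass.

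Meox2 (ENSMUSG00000036144, chromosome 12, 37108540 to 37179534, plus strand) had 8.92, 11.3 and 9.15 RPKM in controls and 8.59, 9.28 and 10.2 RPKM in iPCKO samples. The groups overlapped almost fully, with a log2 fold change of -0.06 and a 95% interval of -0.33 to 0.21 that lies within the fold limits. Its paralogue Meox1 had 25.0, 16.2 and 14.7 RPKM in controls and 26.7, 22.8 and 27.7 RPKM in iPCKO samples, where control 1 overlapped the iPCKO range (log2 fold change 0.50, limma adjusted p = 0.11). The neighbouring gene Agmo stood at 0.271 to 0.647 RPKM in all samples.

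Ebf1 (ENSMUSG00000057098, chromosome 11, 44617317 to 45008091, plus strand) had 22.2, 16.2 and 19.9 RPKM in controls and 17.7, 16.1 and 16.2 RPKM in iPCKO samples. Control 2 lay among the iPCKO samples, and the log2 fold change was -0.21 (95% interval -0.48 to 0.07, limma adjusted p = 0.287). With the Y-linked transcripts as a covariate it was 0.04. The 8 B cell markers summed to 9.5 to 9.8 RPKM in controls and 4.2 to 8.5 RPKM in iPCKO samples, 0 of the 4 tested passed the thresholds, none was at 0 in all samples, and their part in the Ebf1 value was not tested. The Ebf, Meox and Zfp423 relatives had 4 of 6 genes tested, 0 called and a median log2 fold change of 0.14. Zfp423 and Zfp521, zinc finger partners of EBF proteins, had log2 fold changes of 0.22 and 0.06, and Ebf4 had -0.10.

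Across the 7 lists of related and other mesenchymal transcription factors, 77 of 148 genes were tested, 3 rose and 6 fell, which is 11.7% of those tested, where 6.79% of all genes tested passed. These lists hold relatives picked by family and known mesenchymal factors, and the count fell to 5 without control 3, without iPCKO 2 or without iPCKO 3. With the Y-linked covariate 1 of the 9 calls, Pknox2, remained. That fit leaves control 2 as nearly the only control for the group difference, and calls over all genes went from 817 to 119. A lost call therefore does not show a smaller difference. The calls of Foxl1, Meis1, Snai2, Msc, Twist2, Scx and Id1 were lost, at limma adjusted p-values of 0.0154 for Id1 to 0.132 for Meis1. The estimates of these genes kept their sign. They were -2.69 for Msc, -0.96 for Snai2, -0.715 for Twist2, -0.52 for Meis1, 0.98 for Id1, and 1.16 for Foxl1 and Scx. Of the 17 tested genes in the list of other mesenchymal factors, 1 fell: Snai2, a repressor of epithelial genes, from 15.9 ± 2.14 to 8.96 ± 1.66 RPKM (SD, n = 3, log2 fold change -0.83, limma adjusted p = 0.00876). The most abundant genes of that list, Heyl, a Notch target, and Zeb2, a repressor of epithelial genes, had log2 fold changes of -0.33 and -0.44 with no overlap between groups and limma adjusted p-values of 0.16 and 0.0191.

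**Figure D5:**
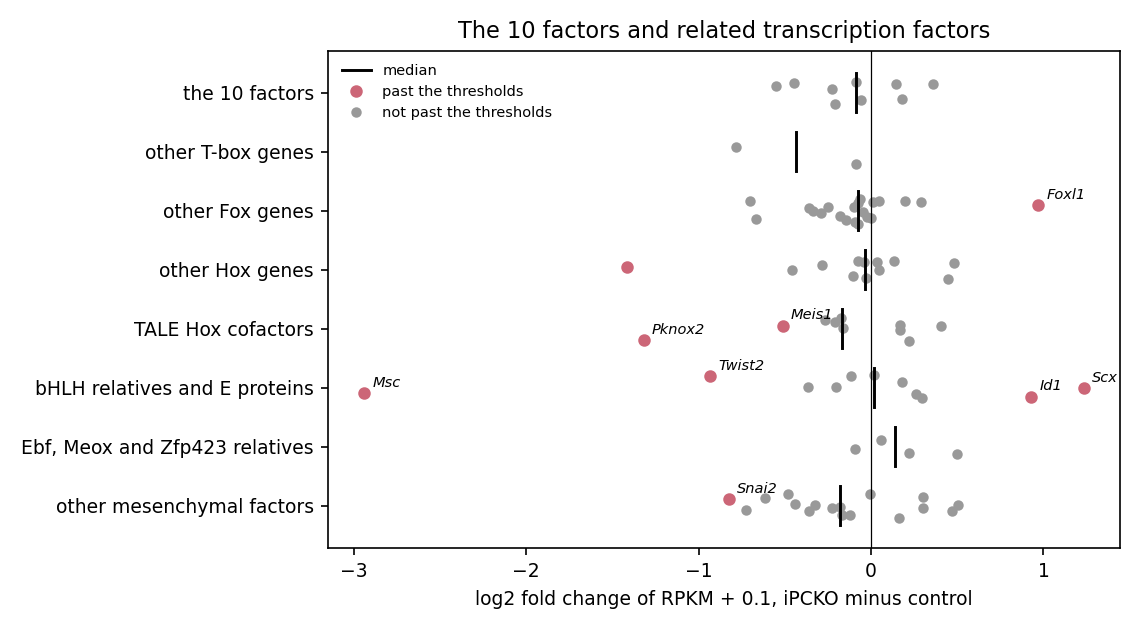
Log2 fold change of RPKM + 0.1, iPCKO minus control, for the 9 tested of the 10 factors and for 77 tested related transcription factors in 7 lists (vertical scatter within a list has no meaning). Black bars are list medians and red points are the 9 related genes past the thresholds. Msc at -2.94 lies farthest from 0, and the 9 factors lie between -0.55 and 0.36.

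The genes of these lists most like Tcf21, Tbx4 and Tbx3 over the 6 samples were found by the root mean square difference of their log2 values after each gene was centred on its own mean. For Tcf21 they were Hoxa4 (0.083) and Meis1 (0.101). For Tbx4 they were Nfia (0.053), a nuclear factor I gene, and Zeb2 (0.091). For Tbx3 they were Gata6 (0.077), a zinc finger factor of lung epithelium and muscle, and Zeb1 (0.078). Nfia had 27.9, 20.8 and 20.7 RPKM in controls and 18.5, 18.2 and 16.8 RPKM in iPCKO samples, with control 1 highest as for Tbx4. Gata6 had 9.21, 8.44 and 8.52 RPKM in controls and 10.3, 11.2 and 10.8 RPKM in iPCKO samples, and its groups did not overlap. As Nfia and Gata6 were picked for their likeness to Tbx4 and Tbx3, such shared traits follow from the choice and are no further result.

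Markers of the cell types that a lung pulldown can hold were measured beside these factors. Over all tested genes, 4.11% rose and 2.68% fell past the same thresholds. Of 12 pericyte markers, 3 rose (Cspg4, Kcnj8 and Abcc9) and 2 fell (Rgs5 and Notch3), and their summed RPKM of 5265 to 6168 in controls overlapped the 5133 to 6078 of iPCKO samples. Smooth muscle sums of 1303 to 1479 and 1428 to 1567 RPKM also overlapped, but 2 of the 6 genes rose, Actg2 from 73.7 ± 12.4 to 222.0 ± 33.8 RPKM and Cnn1 from 14.7 ± 1.53 to 31.7 ± 2.16 RPKM (SD, n = 3). Endothelial sums of 191.4 to 204.9 and 188.0 to 201.1 RPKM overlapped, and 1 of the 8 genes, Kdr, rose. Epithelial sums were higher in every iPCKO sample, 571.4 to 619.6 against 452.6 to 500.3 RPKM, with 1 of 8 genes (Sftpb) past the thresholds. Sftpc made up most of these sums, with means of 362.8 RPKM in controls and 454.2 RPKM in iPCKO samples, and did not pass. Sftpc, Sftpb, Cdh1 and Ager were higher in every iPCKO sample, while Nkx2-1, Epcam, Foxa2 and Aqp5 overlapped between the groups. Mesothelial sums were 6.5 to 8.9 and 10.7 to 13.8 RPKM, with 1 of 3 tested genes higher. Neutrophil and leukocyte markers summed to 77.2 to 107.1 RPKM in controls and 416.1 to 4352 RPKM in iPCKO samples, 6 of 8 rising. No listed marker was at 0 in every sample, and the part of these cells in the values of the 10 factors was not tested.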

How the data were processed

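Ribosome-associated RNA of 3 control and 3 iPCKO lung samples was sequenced. The authors used TopHat on mm10 (GRCm38), HTSeq 0.6.1 for gene counts and DESeq2 for tests, and deposited 1 table of RPKM per sample for 21603 genes. Which exon length entered is not stated. Symbols for 21375 genes and all positions came from GENCODE M21. The 12034 genes that reached 1 RPKM in 3 or more samples were tested as log2(RPKM + 0.1), without further scaling, with limma 3.58.1 (R 4.3.3, intensity trend, Benjamini-Hochberg adjustment). Fold changes on this scale understate changes of low genes. Python 3.11.15 with pandas 2.3.3, numpy 2.4.6 and matplotlib 3.10.9 made tables and figures. Depths rest on low values of which 75.3% to 77.1% were whole within 0.02 reads, so no count test was run. The code was tested on simulated data. The members, lists and tests were chosen with earlier results of these data known. Genes named are the 10 factors, in each list up to 4 called genes of the largest change and the 2 most abundant, Hoxa genes, nearest genes, the 2 genes most alike, the targeted genes and markers. A few items under this rule are not reported here. Close relatives named beside a member, and single list members beside these, were added after their values were seen. Alternatives covered the block, pseudocounts, filters, thresholds, scaling, variance model, sample weights, Y-linked transcripts and each sample left out.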

Additional observations from a re-analysis of the deposited data

How the results depend on the processing

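Labels number the samples 1 to 3 in both groups. Deviations of same-numbered samples correlated with r = 0.238, 0.092 and 0.022, and those of differently numbered samples with r from -0.298 to 0.273. With 3 samples per group, these correlations cannot decide whether same-numbered samples were paired. A replicate block gave 922 genes past the thresholds, against 817, and 0 of the members. Over all genes, sample weights gave 1590, the Y-linked covariate 119, the 4 samples without Y-linked transcripts (1 control, assumed to vary like the iPCKO samples, and chosen after seeing the data) 31, an adjusted p below 0.05 1313, an absolute log2 fold change above 1 411, and leaving out each sample 382 to 899, with 382 without control 3, 414 without iPCKO 2 and 499 without iPCKO 3. Of the 9 members tested, 1 passed with quantile normalization (Tbx4, -0.55, limma adjusted p = 0.00608) and 1 with sample weights (Tcf21, -0.51, limma adjusted p = 0.00177). At an adjusted p below 0.05, 1 passed (Tcf21). This count and the 1313 genes keep the fold limit of 0.5, without which Tbx3 and Tbx4 also passed. Under every other alternative run 0 passed, each sample left out included. Over 17 alternatives, the limma adjusted p was below 0.05 in 12 for Tcf21, 9 for Tbx4, 10 for Tbx3 and 1 for Tbx5, and these 4 and Foxf1 kept their sign. Tbx2 turned to 0.061 with sample weights, 0.158 with the Y-linked covariate and 0.161 in the 4 samples, and ran from -0.209 to 0.07 with a sample left out. Ebf1 turned to 0.038 with the covariate and 0.04 in the 4 samples. Meox2 was -0.275 with the covariate and -0.274 in the 4 samples. Both settings rest on control 2 for the group difference, so they are nearly the same comparison. With a sample left out, Meox2 ran from -0.124 to 0.049 and Hoxa5 from -0.042 to 0.265. Of the listed transcription factors, 20 passed with sample weights, 1 (Pknox2) with the covariate, 0 in the 4 samples and 4 at an absolute log2 fold change above 1, against 9, and 5 to 9 with a sample left out. These counts, apart from those at an adjusted p below 0.05 and with median-ratio scaling, were added after seeing the data. The cause of these shifts was not tested. Median-ratio scaling and quantile normalization moved the median of all genes by -0.0126 and -0.0322 only. At 3 samples per group the median standard error of 0.118 limits what can be seen, and Foxd1 is limited by its few reads.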
